A study of Mus musculus with 4 samples.

Results

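Transcripts of 10 Notch pathway genes were followed in anti-YTHDF2 RNA immunoprecipitation (RIP) of newborn mouse retina. They comprise the receptors *Notch1*, *Notch2* and *Notch3*, the ligands *Dll1*, *Dll4* and *Jag1*, the DNA-binding mediator *Rbpj*, and the Hes family genes *Hes1*, *Hes5* and *Hes6*. The genes were chosen by symbol from a table of 52550 genes, and all 10 passed the filter on low counts that left 13632 genes for testing. YTHDF2 is a reader protein that binds mRNA carrying N6-methyladenosine (m6A) and is known to promote decay of the mRNA it binds. In a RIP, an antibody pulls down a protein with its RNA, and sequencing this RNA beside the RNA before the pulldown (input) shows which transcripts are over- or under-represented in the pulldown. All libraries came from wild-type C57BL/6 retinas at postnatal day 0, dissociated with papain. Each of 2 biological replicates gave an input library and a RIP library made with an anti-YTHDF2 antibody, with no treatment or mutant allele in either group. The number of animals per replicate is not given in the sources used here, and the pulldown with control IgG that the study's methods name was not analysed here, so that RNA bound to YTHDF2 and RNA carried along by the pulldown itself cannot be told apart.

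Notch signalling passes between neighbouring cells. A Delta or Jagged ligand on one cell binds a Notch receptor on the next, the receptor is cut by ADAM proteases and gamma-secretase, and its freed intracellular part joins RBPJ and Mastermind proteins on DNA. In retinal progenitors the best known targets are *Hes1* and *Hes5*, whose products repress proneural genes and hold the cell in an undifferentiated state. *Hes6*, by contrast, is known to counteract Hes1 and to accompany neuronal differentiation. In bulk retina, a transcript's level does not separate the number of cells that hold it from the amount per cell.

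The m6A mark sits in a short sequence context of which GGACT is the commonest form, with the methylated base being its A, and in mRNA it is known to be frequent near the stop codon. The 21 bases around the GGACT nearest to the stop codon within the coding sequence, on the sense strand of the GENCODE M21 transcript (GRCm38), are shown for the 3 members that passed the test between RIP and input and for the other two Hes genes. The motif is in capitals, and distances to the stop codon are counted from its A.
Notch2: gatgctgaGGACTcttctgcc
Dll4: tctcccagGGACTctatgtac
Hes1: ctcacttcGGACTccatgtgg
Hes5: ctgcaccaGGACTacagcgag
Hes6: ctgctgggGGACTccctagct
The window of *Notch2* lies at chr3:98142961-98142981 (plus strand) in coding exon 31 of 34, 1859 bases before the stop codon. That of *Dll4* lies at chr2:119334082-119334102 (plus strand) in exon 10 of 11, 68 bases before it. The *Hes1* window, at chr16:30067390-30067410 (plus strand) in exon 4 of 4, is the closest to the stop codon, at 26 bases. The windows of *Hes5* (chr4:154961421-154961441, plus strand, exon 3 of 3) and *Hes6* (chr1:91412283-91412303, minus strand, exon 4 of 4) have their A 242 and 233 bases before it. The motif occurred on the sense strand of 10 of the 10 members' transcripts, but also in 92.1% of the 11953 tested protein-coding transcripts, so that its presence did not set the members apart. *Dll4* had the densest motifs, with 10 in its 3747 nt (2.67 per kb), more per kb than 96.5% of tested protein-coding transcripts, whose median was 1.05. *Rbpj* had the sparsest, with 3 in 5459 nt (0.55 per kb). A match of these letters is not a measured m6A site, and no methylation was measured in these libraries.

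The deposited counts totalled 36236531 to 39499994 per input and 19530226 to 24903212 per RIP library, and the 10 members together took 5683 to 7222 counts in every library. The overlapping genes AY036118 and CT010467.1, the second a ribosomal RNA gene and the first a lincRNA inside it, took 55.0% to 55.5% of the input counts and 85.3% to 87.8% of the RIP counts. Counts are therefore given as CPM, counts per 1000000 of the TMM-scaled library size. A fold change is then relative to most tested genes and is no absolute amount of RNA. The 13632 genes had a median log2 fold change of -0.05, which became 0.27 with scaling by library size alone. Fold changes of RIP against input were tested with edgeR's quasi-likelihood method, and a gene passed the test at a Benjamini-Hochberg adjusted p below 0.05 over all 13632 genes. With 2 libraries a group, an exact two-sided permutation test of 1 gene has 0.333 as its smallest p, and the calls depend on a variance estimate pooled over genes. All 9 progenitor markers listed for this tissue were measured, and *Ccnd1* had 424 to 685 CPM in the inputs.

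The receptor *Notch2* and the ligand *Dll4* were over-represented in the YTHDF2 pulldown and *Hes1* was under-represented. Of the 10 members, 2 rose in the RIP at the adjusted threshold, *Notch2* and *Dll4*, where 3.48% of all tested genes did, and 1 fell, *Hes1*, where 9.78% did. Under limits of 1 on the log2 fold change and 0.05 on the unadjusted p, 3 members were higher in the RIP, *Notch3* being added, against 9.43% of all tested genes. At the mirrored limits, *Hes1* alone was lower, against 17.2%. Both RIP libraries lay above both inputs for 6 members, against 29.6% of tested genes, and below both for 1, against 31.3%. The members' median log2 fold change was 0.79, which was 0.85 above that of all tested genes, or 0.32 above it after removal of trends on GC content and transcript length, and 8 of the 10 had a value above 0. After that removal, *Notch2* (0.84, edgeR adjusted p = 0.0652) and *Hes1* (-0.76, adjusted p = 0.0910) no longer passed. *Dll4* passed at 1.03 (edgeR adjusted p = 0.0294), but not with a term for the replicate number (adjusted p = 0.0530).

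**Figure D1:**
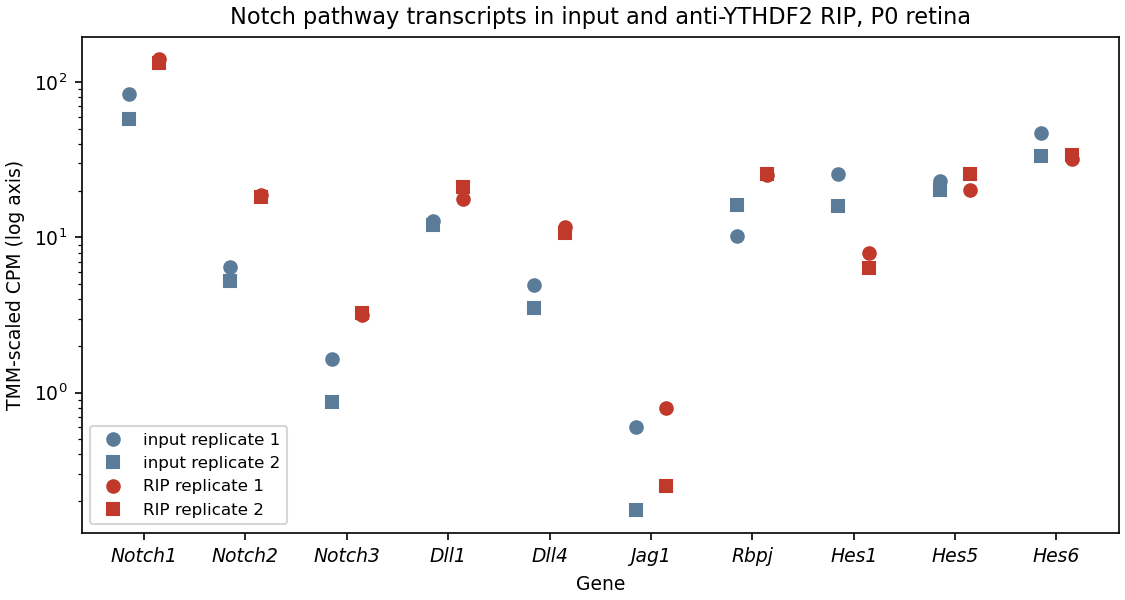
TMM-scaled CPM (log axis) of the 10 members in each of the 4 libraries, with inputs in blue, RIP libraries in red, replicate 1 as circles and replicate 2 as squares. For *Notch1*, *Notch2*, *Notch3*, *Dll1*, *Dll4* and *Rbpj* both red points sit above both blue points, for *Hes1* both sit below, and for *Jag1*, *Hes5* and *Hes6* they overlap.

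Among the receptors, *Notch2* passed the test. *Notch2* (ENSMUSG00000027878, chr3:98013527-98150361, plus strand) had 216 and 179 counts as inputs (replicates 1 and 2, as in all pairs of values here) and 471 and 440 after RIP, or 6.47 and 5.21 CPM against 18.7 and 18.3 CPM. The RIP libraries nearly coincided, and both were well above both inputs. Its level rose 3.16-fold, a log2 difference of 1.66 (standard error 0.340, adjusted p = 0.0165, edgeR), which was above that of 96.9% of all tested genes. *Notch1*, the receptor best known for keeping retinal progenitors from differentiating, was by far the most counted member. *Notch1* (ENSMUSG00000026923, chr2:26457903-26516663, minus strand) had 2803 and 1980 counts in the inputs and 3549 and 3216 after RIP, or 84.0 and 57.7 CPM against 141 and 134 CPM. The groups did not overlap, but the inputs lay far apart. Its log2 fold change of 0.95 (standard error 0.355, 95% interval 0.14 to 1.76) did not pass the adjusted threshold by edgeR (adjusted p = 0.114), whereas by DESeq2 it passed at 0.97 (adjusted p = 0.0421) and with library size alone at 1.31 (adjusted p = 0.0457). *Notch3*, known mainly from the mural cells of blood vessels and expressed in retinal progenitors as well, was the least abundant receptor. *Notch3* (ENSMUSG00000038146, chr17:32120820-32166852, minus strand) had 55 and 30 counts in the inputs and 80 and 78 after RIP, or 1.65 and 0.87 CPM against 3.17 and 3.24 CPM. Its log2 fold change was 1.34 (standard error 0.469, edgeR adjusted p = 0.0955), past the fold limit with an unadjusted p of 0.0196, and with library size alone it passed at 1.70 (adjusted p = 0.0448). Without RIP replicate 1 or without RIP replicate 2, where the remaining RIP library is assumed to vary as the inputs do, *Notch2* kept log2 fold changes of 1.75 and 1.77 but lost its call (adjusted p = 0.213 and 0.186). *Notch1* was at 1.25 without input replicate 1 and at 0.70 without input replicate 2. *Notch3* was at 1.87 without input replicate 1, where *Notch2* was at 1.82. Differences between receptors were not tested.

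Of the ligands, 1 passed. *Dll4*, a Delta ligand known in the retina from cells leaving the cell cycle and from sprouting vessels, was enriched. *Dll4* (ENSMUSG00000027314, chr2:119325784-119335962, plus strand) had 165 and 121 counts in the inputs and 295 and 259 after RIP, or 4.95 and 3.52 CPM against 11.7 and 10.8 CPM. Each RIP library stood above the higher input, and the level rose 2.65-fold, a log2 difference of 1.41 (standard error 0.364, edgeR adjusted p = 0.0383). *Dll1*, the Delta ligand of newborn neurons that signals back to progenitors, showed a smaller difference. *Dll1* (ENSMUSG00000014773, chr17:15367354-15376872, minus strand) had 429 and 415 counts in the inputs and 445 and 511 after RIP, or 12.9 and 12.1 CPM against 17.6 and 21.2 CPM. The libraries did not overlap between groups, yet the log2 fold change of 0.64 (95% interval -0.11 to 1.39) missed the threshold by edgeR (adjusted p = 0.233). *Jag1*, a Jagged ligand, was close to the limit of what these libraries can measure. *Jag1* (ENSMUSG00000027276, chr2:137081456-137116644, minus strand) had 20 and 6 counts in the inputs and 20 and 6 after RIP. The groups overlapped, and the 95% interval of its log2 fold change, -1.70 to 2.56 around 0.43, left a difference in either direction not detectable at this depth. The call of *Dll4* was lost without RIP replicate 1 (log2 fold change 1.45, adjusted p = 0.308) and without RIP replicate 2 (1.56, adjusted p = 0.265). *Dll1* was at 0.68 without input replicate 1 and at 0.59 without input replicate 2. *Jag1* turned to -0.20 without input replicate 2 and to -0.49 without RIP replicate 1.

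*Rbpj*, the mediator shared by all receptors, had its inputs further apart than its RIP libraries. *Rbpj* (ENSMUSG00000039191, chr5:53466152-53657362, plus strand) had 339 and 556 counts in the inputs and 639 and 615 after RIP, or 10.2 and 16.2 CPM against 25.3 and 25.6 CPM. All RIP values were above all input values. The log2 fold change of 0.95 (standard error 0.363, 95% interval 0.12 to 1.78) did not pass by edgeR (adjusted p = 0.122). It was at 0.65 without input replicate 1 and at 1.32 without input replicate 2. Without RIP replicate 1 it was at 1.03, and without RIP replicate 2 at 1.01. A processed pseudogene of *Rbpj*, *Rbpj-ps3*, was given 23 and 70 counts in the inputs and 70 and 70 after RIP, so that reads could have been split between the copies. On the strand opposite to members, *A930024N18Rik* at *Dll1* had 30 to 85 counts and *Gm20421* at *Hes5* 46 to 74, and the strand setting of the counting is not given in the sources used here.

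Of the Hes genes, *Hes1* fell and the other two did not pass. *Hes1* (ENSMUSG00000022528, chr16:30064384-30067796, plus strand) had 852 and 549 counts in the inputs and 201 and 152 after RIP, or 25.5 and 16.0 CPM against 7.96 and 6.31 CPM. Both RIP libraries were below both inputs. *Hes1* was 2.91-fold lower in the RIP, a log2 difference of -1.54 (standard error 0.379, edgeR adjusted p = 0.0322). *Hes5* (ENSMUSG00000048001, chr4:154960923-154962371, plus strand), the other main effector of Notch in progenitors, had 766 and 691 counts in the inputs and 512 and 618 after RIP, or 23.0 and 20.1 CPM against 20.3 and 25.7 CPM. The groups overlapped, with a log2 fold change of 0.09 and a 95% interval of -0.67 to 0.86 (edgeR adjusted p = 0.882). *Hes6* (ENSMUSG00000067071, chr1:91411483-91414038, minus strand) had 1577 and 1156 counts in the inputs and 809 and 823 after RIP, or 47.3 and 33.7 CPM against 32.0 and 34.2 CPM. Its groups overlapped as well, at a log2 fold change of -0.29 (95% interval -1.07 to 0.49, edgeR adjusted p = 0.621) that turned to 0.05 with scaling by library size alone. *Hes1* kept a value below 0 under every alternative run but lost its call in 8 of the 15. These were library size alone (-1.17, adjusted p = 0.105), no filter on low counts (-1.44, adjusted p = 0.0626), limma on log2(FPKM + 0.1) (-1.23, adjusted p = 0.0772) and on log2(FPKM + 1) (-1.05, adjusted p = 0.0649), removal of GC and length trends without and with the replicate block (-0.76 in both, adjusted p = 0.0910 and 0.111), and the fits without RIP replicate 1 (-1.60, adjusted p = 0.298) and without RIP replicate 2 (-1.28, adjusted p = 0.379). *Hes6* was at -0.52 without input replicate 2, and *Hes5* was then at -0.0060.

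**Figure D2:**
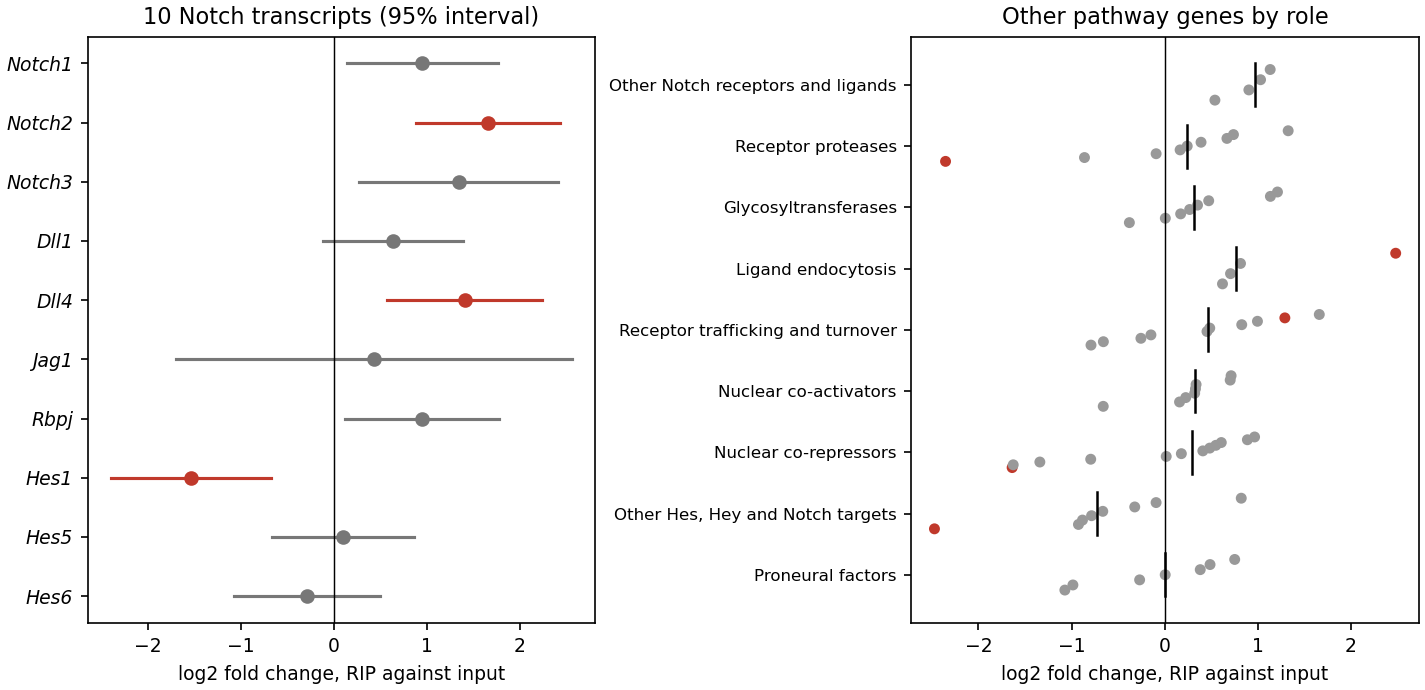
Log2 fold change of RIP against input (x axis) for the 10 members with 95% intervals (left) and for the other tested Notch pathway genes as points grouped by role, with the median of each group as a black bar (right). Red marks an adjusted p below 0.05, and *Notch2* at 1.66, *Dll4* at 1.41 and *Hes1* at -1.54 are the members that passed.

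Ratios of raw counts within 1 library do not depend on how libraries are scaled to each other, and for most of the chosen pairs they differed between the fractions. The share of other gene pairs that differ in this way was not computed. There were 3.29 and 3.61 *Notch1* counts per *Hes1* count in the inputs and 17.7 and 21.2 after RIP. For *Notch2* the ratio to *Hes1* went from 0.254 and 0.326 to 2.34 and 2.89. The mediator *Rbpj* stood at 0.398 and 1.01 counts per *Hes1* count in the inputs and at 3.18 and 4.05 after RIP. Within the Hes family, *Hes5* counts per *Hes1* count were 0.899 and 1.26 in the inputs and 2.55 and 4.07 after RIP, and *Hes6* counts per *Hes1* count were 1.85 and 2.11 against 4.02 and 5.41. For each pair with *Hes1* as denominator, both RIP libraries thus lay above both inputs. These pairs share *Hes1*, which was itself lower in the RIP, and they are not independent results. Pairs of a long with a short transcript also carry the trend with transcript length described below. Among receptors and ligands the ratios lay closer together. The ratio of *Notch2* to *Notch1* was 0.0771 and 0.0904 in the inputs and 0.133 and 0.137 after RIP, and that of *Dll4* to *Dll1* was 0.385 and 0.292 against 0.663 and 0.507. *Dll1* per *Notch1* was the 1 pair of the 10 computed whose groups overlapped, with 0.153 and 0.210 in the inputs and 0.125 and 0.159 after RIP. With 2 libraries a group, the smallest two-sided p of an exact permutation test of any of these ratios is 0.333, and none was tested.

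**Figure D3:**
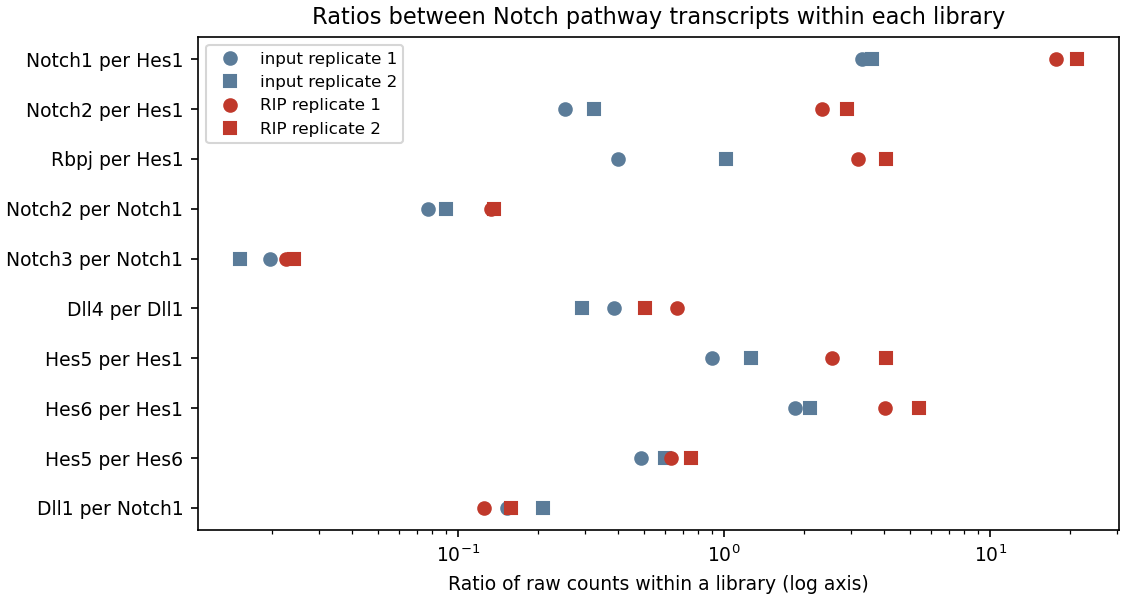
Ratio of the raw counts of 2 members within each library (log axis) for 10 pairs, with inputs in blue, RIP libraries in red, replicate 1 as circles and replicate 2 as squares. The pairs with *Hes1* as denominator are shifted most, and *Dll1* per *Notch1* is the pair in which the colours overlap.

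The order of the members by level, read from the deposited FPKM values, which are per length of gene, differed between the fractions. In the inputs the Hes genes led. The mean FPKM was 18.9 ± 2.88 (SD, n = 2) for *Hes6*, 13.5 ± 0.0880 for *Hes5* and 8.60 ± 2.08 for *Hes1*, ahead of 4.22 ± 0.751 for *Notch1* and 2.51 ± 0.108 for *Dll1*. *Dll4* (0.827 to 1.03 FPKM) and *Rbpj* (0.633 to 1.15 FPKM) overlapped and could not be ordered. *Notch2* at 0.460 ± 0.0295, *Notch3* at 0.132 ± 0.0470 and *Jag1* at 0.0537 ± 0.0385 FPKM followed. In the RIP libraries, *Hes6* (16.8 and 21.1 FPKM) and *Hes5* (16.7 and 17.7 FPKM) overlapped at the top and *Notch1* came next, at 10.1 ± 2.41 FPKM. *Hes1* moved from the third place to one shared with the ligands, its 2.73 and 4.61 FPKM overlapping both *Dll1* (4.46 and 4.94 FPKM) and *Dll4* (2.48 and 3.60 FPKM). *Rbpj* (1.78 and 2.35 FPKM) and *Notch2* (1.5 and 2.06 FPKM) overlapped below them. *Notch3* and *Jag1* remained lowest, at 0.413 ± 0.0794 and 0.0948 ± 0.0864 FPKM.

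Transcript length ran alongside these differences. Receptor transcripts are long, with 8016 nt for *Notch3*, 9488 nt for *Notch1* and 10500 nt for *Notch2*, and the Hes transcripts short, with 1273 nt for *Hes5*, 1335 nt for *Hes6* and 1468 nt for *Hes1*. Across the 10 members the Spearman correlation of length with log2 fold change was 0.77, and across 11953 tested protein-coding genes, which share the 4 libraries and are not independent, it was 0.48. Of tested protein-coding transcripts of up to 1500 nt, 34.6% fell in the RIP and 0.749% rose, with a median log2 fold change of -1.24. Of those over 6000 nt, 0.369% fell and 8.97% rose, with a median of 0.57. Set against its own length class, *Hes1* was near the middle, its log2 fold change of -1.54 lying above 39.9% of transcripts of up to 1500 nt. The log2 fold changes of *Hes5* and *Hes6*, 0.09 and -0.29, were high for such short transcripts, lying above 87.3% and 77.9% of the class and past its upper quartile of -0.39. The part of length in the members' values was tested only by taking its trend out of the counts. *Notch1* lay above 71.7% of transcripts over 6000 nt, *Notch3* above 86.8% and *Notch2* above 94.7%. Among transcripts of 3000 to 6000 nt, whose median was 0.31, *Dll4* (3747 nt) lay above 92.7%, *Rbpj* (5459 nt) above 81.5%, *Dll1* (3581 nt) above 67.5% and *Jag1* (5612 nt) above 56.4%. GC content and motif density did not order the members in this way, with Spearman correlations with the log2 fold change of -0.067 and 0.13 over the 10 members.

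**Figure D4:**
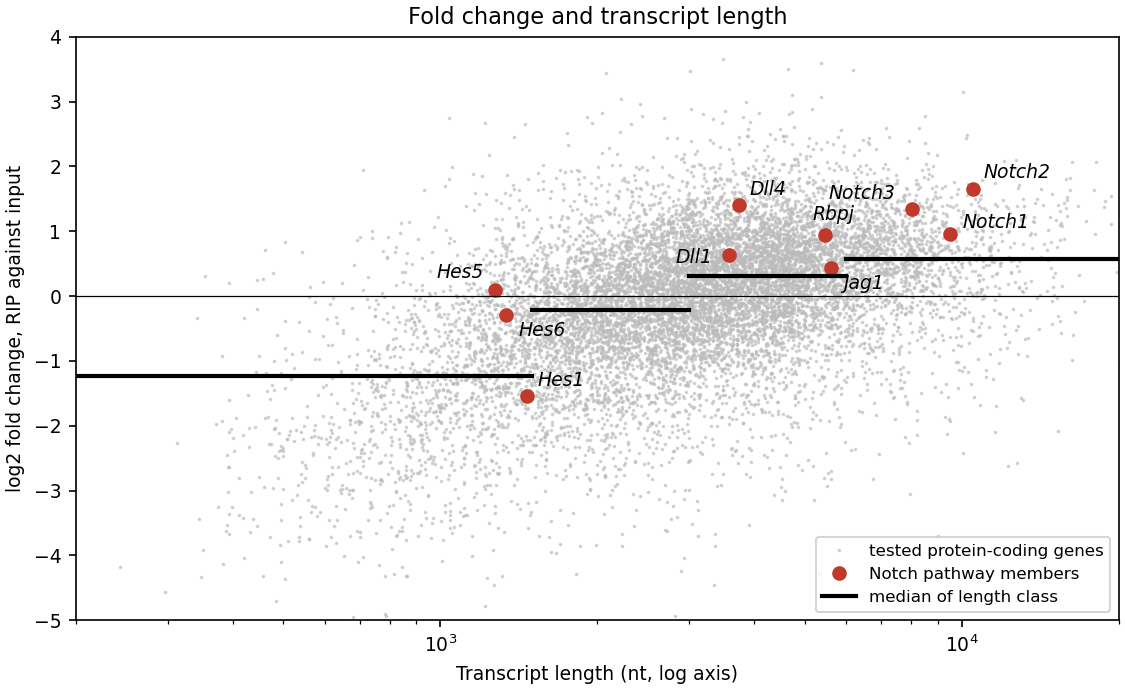
Log2 fold change of RIP against input (y axis) by transcript length in nt (log axis) for tested protein-coding genes in grey, for the 10 members in red and as the median of each length class in black. *Hes5* and *Hes6* sit above the black bar of their class at -1.24, *Hes1* slightly below it, and the 3 receptors above the bar at 0.57.

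When smooth trends on GC content and transcript length were taken out of each library, *Dll4* had the largest value of the members, at a log2 fold change of 1.03 (adjusted p = 0.0294, edgeR), or at 1.03 (adjusted p = 0.0530) with a term for the replicate number. *Notch2* was then at 0.84 (adjusted p = 0.0652) and *Hes1* at -0.76 (adjusted p = 0.0910), and neither passed. *Notch1* was at 0.05 and *Notch3* at 0.40, the values nearest to 0 among the receptors. *Hes5* was at 0.67 and *Hes6* turned to 0.32, with adjusted p-values of 0.119 and 0.352 by edgeR.

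**Figure D5:**
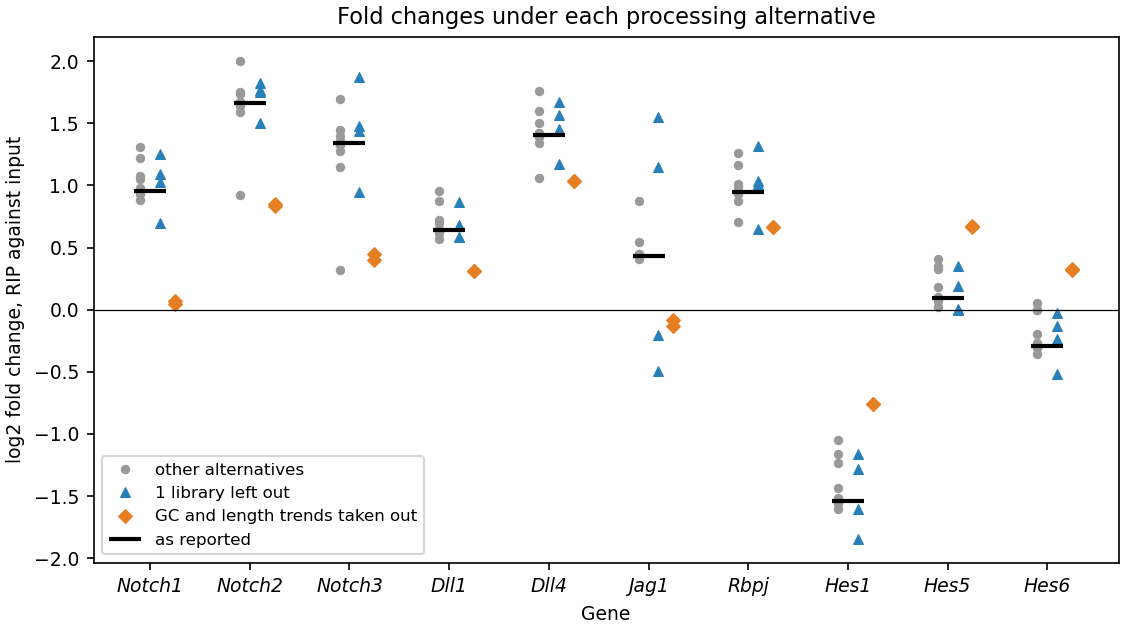
Log2 fold change of RIP against input (y axis) of each member as reported (black bar), with 1 library left out (blue triangles), after removal of GC and length trends (orange diamonds) and under the other alternatives (grey circles). The orange diamonds of *Notch1* lie near 0, those of *Dll4* near 1, and those of *Hes5* and *Hes6* above their black bars.

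Other genes of the pathway were taken from a list of 78 symbols grouped by role. These stood for 77 genes in the table, since *Tle5* and *Aes* name the same gene, and 70 were tested. Of the 70, 2 rose and 3 fell, beside 3.48% and 9.78% of all tested genes, and their median was 0.33 on the log2 scale, against -0.05 for all tested genes. Of the other receptors and ligands, 4 were tested and 0 passed by edgeR or DESeq2, with log2 fold changes from 0.54 to 1.13 and 1 at an unadjusted p below 0.05. *Dll3*, a divergent Delta protein that acts inside the signalling cell, was at 0.90 (95% interval -0.03 to 1.84). Of 4 genes for ligand endocytosis, which makes Delta able to signal, *Mib1* rose. This ubiquitin ligase of Delta had 170 and 311 counts in the inputs and 1315 and 649 after RIP, a log2 difference of 2.48 (standard error 0.466, edgeR adjusted p = 0.0118). Its RIP libraries differed from each other, with 52.1 and 27.0 CPM, and both exceeded the inputs at 5.10 and 9.06 CPM. *Neurl1b*, the gene of that group with the highest input FPKM, was at 0.62 (edgeR adjusted p = 0.434).

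Among 10 genes for receptor trafficking and turnover, *Nedd4*, a ubiquitin ligase with many substrates, rose by a log2 fold change of 1.29 (edgeR adjusted p = 0.0405), with 31.1 and 40.1 CPM in the inputs against 89.4 and 84.8 CPM after RIP. Its adjusted p was 0.0697 with the replicate number as a block and 0.0568 with no filter on low counts. *Dtx4*, a Deltex gene, had 40.7 to 59.7 CPM in the inputs against 85.9 to 92.2 CPM after RIP, at 0.83 (edgeR adjusted p = 0.159). Of 9 receptor protease genes, *Psenen*, the smallest subunit of gamma-secretase, fell. It had 202 and 150 counts in the inputs and 22 and 28 after RIP, a log2 difference of -2.35 (standard error 0.436, edgeR adjusted p = 0.0112), on a transcript of 708 nt. The 8 glycosyltransferase genes, whose products add sugars to the receptors, held 0 that passed by edgeR or DESeq2 and 1 at an unadjusted p below 0.05, and *Lfng*, a Fringe gene with the highest input FPKM of them, was at 0.01 (95% interval -0.89 to 0.90). With the block, *Gxylt1* (1.53, adjusted p = 0.0212) and *Dtx3l* (1.71, adjusted p = 0.0419) passed as well, both named after their values were seen.

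Of 8 nuclear co-activator genes, 0 passed by edgeR or DESeq2 and 0 had an unadjusted p below 0.05, *Crebbp* being at 0.32 (95% interval -0.44 to 1.09). Of 12 co-repressor genes, the histone deacetylase *Hdac2* fell by 1.64 on the log2 scale (edgeR adjusted p = 0.0405), from 268 and 448 counts to 64 and 102. Its call was lost with library size alone (adjusted p = 0.0782), no filter (0.0989) and both FPKM fits (0.0836 and 0.0766). *Aes*, a short member of the Groucho family of Hes partners, was at -1.34 (edgeR adjusted p = 0.0617), and it passed by DESeq2, as did *Cir1*, which was named after its value was seen. Of 8 other Hes, Hey and target genes, *Id2*, whose product counteracts proneural factors, fell. It had 640 and 521 counts in the inputs and 66 and 86 after RIP, a log2 difference of -2.47 (standard error 0.376, edgeR adjusted p = 0.00487), on a transcript of 958 nt. This group had a median log2 fold change of -0.72, against -0.05 for all tested genes, with 1 of the 8 above 0. The trend with transcript length was not taken out of this median, and whether the group differed from other genes was not tested. *Id1* was at -0.93 (edgeR adjusted p = 0.122). Of 7 proneural genes 0 passed by edgeR or DESeq2, and 2 were lower at an unadjusted p below 0.05. After removal of GC and length trends, *Mib1* was at 2.04 (adjusted p = 0.0152), *Nedd4* at 0.88 (adjusted p = 0.0431, or 0.0746 with the replicate block) and *Id2* at -1.13 (adjusted p = 0.0293), whereas *Psenen* at -0.54 (adjusted p = 0.290) and *Hdac2* at -1.01 (adjusted p = 0.0689) no longer passed. All 5 lost their calls without RIP replicate 1 and without RIP replicate 2, with values of 2.00 and 2.94 for *Mib1*, 1.34 and 1.40 for *Nedd4*, -2.05 and -2.48 for *Psenen*, -1.24 and -1.99 for *Hdac2* and -2.16 and -2.62 for *Id2*.

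Since *Notch1*, *Dll4* and *Jag1* are also genes of blood vessel endothelium and *Notch3* one of mural cells, markers of these and other cells were read beside them. Of 8 endothelial markers, 3 were tested and 0 passed by edgeR, while *Kdr* had an unadjusted p of 0.00909 and passed as higher by DESeq2. The summed level of the endothelial markers was 32.6 to 33.8 CPM in the inputs against 65.8 to 67.3 CPM after RIP. Nearly all of it came from *Kdr* (29.9 to 30.2 and 63.3 to 65.0 CPM). *Cldn5* and *Flt1*, also tested, went the other way, with log2 fold changes of -0.28 and -0.78. *Tie1* and *Emcn* had no count in any library, and *Pecam1* had 7 and 7 counts in the inputs and 0 after RIP. Of 7 mural markers 3 were tested, 1 rose (*Pdgfrb*, 1.63) and 1 fell (*Rgs5*, 13 and 14 counts in the inputs and 0 after RIP). By edgeR *Rgs5* had an adjusted p of 0.0474, or 0.0558 with the replicate number as a block, and it was not called by DESeq2. The mural markers summed to 1.43 to 2.46 CPM in the inputs against 4.28 to 4.45 CPM after RIP. Most of this came from *Pdgfrb* alone (1.02 to 1.38 and 3.72 to 3.74 CPM). *Acta2* and *Myh11* had at most 3 and 5 counts in a library. *Kcnj8* and *Abcc9* had no count in any library. Lens markers summed to at most 0.612 CPM, and 1 of the 6 was tested, with 0 calls by edgeR or DESeq2 and 0 at an unadjusted p below 0.05. Of 9 progenitor markers 2 fell and 0 rose by edgeR or DESeq2, also at an unadjusted p below 0.05, with 656 to 927 CPM in sum in the inputs against 606 to 622 CPM after RIP. Of 9 ganglion cell markers 4 fell and 0 rose by the same criteria, with 98.9 to 99.3 CPM in sum against 34.9 to 36.3 CPM. Beside these marker counts, 3.48% of all tested genes rose and 9.78% fell by edgeR. The trend with transcript length was not taken out of the marker values. The part of these cells in the members' values was not tested.

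Across the 4 libraries, the genes whose centred log2 CPM lay nearest to that of *Notch1* were *Gcn1l1*, *Map3k4* and *Usf2*, at Euclidean distances of 0.0307, 0.0384 and 0.0416. For *Hes1* they were *Spc24*, *Clic1* and *Cyr61*, at 0.0600, 0.0659 and 0.0688. With 4 libraries such distances describe these libraries only.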

How the data were processed

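RIP and input RNA of P0 retina were sequenced in 2 replicates each with a strand-specific kit. The deposited tables hold raw counts per gene and FPKM values, the authors' scaling of reads to gene length and library size by a tool not given in the sources used here. The submitters' processing notes name STAR 2.5, HTSeq and GRCm38 without settings, and the annotation is not given in the sources used here. The members and gene lists were chosen with earlier results of these data known.

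In R 4.3.3 with edgeR 4.0.16, filterByExpr (minimum count 10, minimum total 15) removed low genes before TMM scaling, glmQLFit and glmQLFTest. Intervals and standard errors were derived from the F statistic. The p-values rest on the spread between 2 libraries a group, combined with a variance estimate pooled over genes. Standard errors were alike for *Dll1* (0.330), *Hes5* (0.335), *Notch2* (0.340) and *Hes6* (0.344). That of *Jag1*, whose counts are few, was the largest of the members, at 0.936. Tests were checked on simulated data. By adjusted p, the main fit recovered 1.59% of 63 genes with a true log2 change of 1, 53.2% of 62 at 2 and 93.4% of 61 at 4. Of unchanged genes, 0.0301% were called. Few of the 13474 genes tested there were changed, whereas in the data 474 were called higher and 1333 lower. Fewer changed genes make the adjusted threshold stricter, so these shares do not give the recovery in the data. The intervals of *Notch1* (0.14 to 1.76) and *Rbpj* (0.12 to 1.78), which did not pass by edgeR, include a log2 fold change of 1. Coordinates, lengths, GC content and sequences came from GENCODE M21 (52403 of 52550 identifiers matched), using the transcript with the longest coding sequence. Named genes were the 10 members, other pathway genes with an adjusted p below 0.05, the gene with the highest input FPKM of each role, and the 3 nearest profiles of *Notch1* and *Hes1*. A gene that this rule names is not reported here.

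The series design puts an input and a pulldown in each replicate, so that equal numbers pair the libraries. The differences between replicates 2 and 1 of the inputs and of the RIP libraries had a Pearson r of -0.0236 across tested genes. A replicate block was run as an alternative, beside DESeq2 1.42.0, scaling by library size, by upper quartile or without abundant RNAs (AY036118, CT010467.1 and mitochondrially encoded genes), other filters, limma 3.58.1 on log2(FPKM + 0.1) and log2(FPKM + 1) for mean FPKM of at least 0.1, each library left out, and trends on GC content and length (mgcv 1.9.3, basis size 8).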

Additional observations from a re-analysis of the deposited data

How the results depend on the processing

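With 2 libraries a group, the calls depended on which libraries entered. Leaving out 1 library at a time gave 0 to 6 members higher and 0 to 2 lower by adjusted p, 0 to 19 other pathway genes higher and 0 to 14 lower, and a difference between the median log2 fold change of the members and of all tested genes of 0.64 to 1.08. The zeros came from edgeR without RIP replicate 1 or RIP replicate 2, where 2 members were higher in both cases and 1 and 0 lower at an unadjusted p below 0.05, and over all genes 8 and 9 were higher by adjusted p in place of 474. Without input replicate 1 or 2 there were 2342 and 2539. In these fits *Jag1* ranged from -0.49 to 1.55 and *Hes5* from -0.0060 to 0.35. Over all genes, those lower by adjusted p also became more without an input replicate and fewer without a RIP replicate. The counts of other pathway genes, higher and lower, thus moved in the same direction as those of all genes. Whether their shares differed was not tested. The single library left in a group is assumed to vary like the other group, and the cause was not tested.

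Members higher by adjusted p numbered 3 with DESeq2 (*Notch1* gained), 4 with library size alone (*Notch1* and *Notch3* gained), 1 with GC and length trends taken out and 0 with these trends and the replicate block (4 at an unadjusted p below 0.05), against 2 as reported. Over all tested genes, 730 were higher with DESeq2, 845 with library size alone, 855 with trends and 663 with trends and block, against 474. Members lower numbered 0 with library size alone, with no filter on low counts, with log2(FPKM + 0.1), with log2(FPKM + 1) and with GC and length trends, with or without the block, against 1, and in each of these 1 was lower at an unadjusted p below 0.05. Over all genes, 998 were lower with library size alone and 890 of 23345 tested with no filter, against 1333. There were 1323 and 1332 of 14493 in the FPKM fits, and 898 and 715 with trends without and with the block. By the limits on fold and unadjusted p, 5 members were higher with library size alone, with no filter and with log2(FPKM + 0.1), and 1 with GC and length trends, with or without the block, against 3. Over all tested genes these limits gave 2359, 1560 and 1797 in the first 3 settings, against 1286. With trends they gave 1346 without the block and 1366 with it. Other pathway genes higher numbered 1 with no filter and 1 with trends and block, against 2, and those lower 5 with DESeq2 and 1 with trends and block, against 3. Over all tested genes, 292 and 663 were higher in the first pair of settings and 1522 and 715 lower in the second. The median difference was 1.03 with no filter, 1.002 with log2(FPKM + 0.1), 0.65 with log2(FPKM + 1), 0.32 with GC and length trends and 0.33 with the block added. *Hes6* turned to 0.052 with library size alone and to 0.32 with trends, with or without the block, and *Jag1* to -0.13 with trends and -0.081 with the block added. *Jag1* gave no value where each library needed 10 counts and in the FPKM fits. Of all genes called, 26.2% were higher as reported, 45.8% with library size alone, and 48.8% and 48.1% with trends without and with the block. The causes were not tested.

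The replicate block alone left 2 members higher and 1 lower, with a median difference of 0.81. Beyond *Nedd4*, *Gxylt1*, *Dtx3l* and *Rgs5* it changed no call of a listed pathway gene or member, while over all genes 721 were higher in place of 474.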
